A study of Trichoderma reesei QM6a with 4 samples.

Results

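A set of 97 genes of the filamentous fungus Trichoderma reesei gave lower, well-measured mRNA signals in the mutant strain AT01 than in its wild type, out of 9127 genes on the array. Mycelium of both strains had been cultured in YPD, a rich medium, with 1 mM CuSO4 at 25 °C over 5 days, so the copper was shared by both strains and no culture without added copper enters any value. AT01 is labelled as a mutant with a high ability to accumulate copper. The labels give neither the mutation nor how it was made, and they say of both strains only that RNA came from mycelium. There were 2 AT01 arrays and 2 wild-type arrays, all 1-colour with Cy3 label, on 1 slide in 1 scan. Whether the replicates were grown separately is not stated, so the spread between them may be technical.

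Genes were chosen from the measured values themselves. The processed signals were put on a log2 scale and quantile-normalized, which gives all 4 arrays the same distribution, and the probes of a gene were averaged. A gene counted as well measured if all 4 arrays flagged at least 50% of its probes as well above background, which held for 3686 genes. The 97 genes are those well-measured genes whose lowest wild-type value exceeded their highest AT01 value by 0.8 or more on this log2 scale, a distance called the gap below. They made up 2.63% of the well-measured genes, while 40.6% were lower on both AT01 arrays by a gap of any size, and 216 well-measured genes lay higher in AT01 by the same distance. Since the contrast between the strains chose the genes, their lower level in AT01 is a description and no test of it is given.

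Trichoderma reesei is a soil fungus known for secreting cellulases. Copper is a cofactor of fungal oxidases and of superoxide dismutase, and in excess it is toxic, so fungi control its uptake, chelation and export. On expression arrays of whole mycelium a gene's signal is its share of the labelled RNA, so less RNA per cell and fewer cells that make it cannot be told apart. Only 4 of the 97 genes carry a symbol in the reference table: rps28, which codes for a protein of the small ribosomal subunit, gna1, which codes for an alpha subunit of a heterotrimeric G protein, spe3, the name of spermidine synthase in yeast, and nmt1. The other 93 are described here by locus tag, with no function given, and 1 of these matched no tag and keeps its array name.

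The arrays of the mutant were brighter. On the AT01 arrays 61.0% and 60.3% of probes lay well above background, against 48.0% and 46.0% on the wild-type arrays. Across the well-measured genes the correlation (Pearson's r) of log2 signals was 0.993 between the AT01 arrays, 0.989 between the wild-type arrays and 0.930 to 0.938 between strains, where genes are not independent replicates.

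Marker lists could be checked only in part. Of 9 symbols listed as mycelium markers 3 were found. The glycolytic gene gpd1 read 7.28 and 7.36 in AT01 and 7.72 and 7.62 in wild type, and the hydrophobin gene hfb1 read 5.87 and 5.86 in AT01 and 5.24 and 5.30 in wild type, while hfb2 was dim in both strains. Of 7 conidiation symbols only the hydrophobin gene hfb3 was found, with 3.10 and 3.22 in AT01 and 4.12 and 3.51 in wild type, 1.58-fold lower. None of 3 mating symbols was found. The strains did not overlap for gpd1 and hfb3, which were lower in AT01, as were 40.6% of all well-measured genes by a gap of any size. Nor did they overlap for hfb1, which was higher. Single probes of each gene went both ways. Their log2 differences ran from -0.85 to 0.28 for gpd1, from -1.65 to 0.24 for hfb3 and from -0.45 to 1.73 for hfb1. The part of these marker differences in the results below was not tested.

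Within the 97 genes, AT01 stood at a median of 2.09-fold below wild type, a log2 difference of -1.06 with a range of -2.34 to -0.85. Over all well-measured genes the median log2 difference was -0.04. The middle 50% of the 97 genes lay between -1.25 and -0.98, so most were about 2-fold lower and few much more. By size, 2 genes were at least 4-fold lower in AT01, 66 were from 2-fold to 4-fold lower and 29 were under 2-fold lower. Replicate arrays of these genes lay close together: their median distance was 0.10 between the AT01 arrays and 0.07 between the wild-type arrays, against 0.12 and 0.11 over all well-measured genes. A small distance between replicates helps a gene past the rule, so this closeness is in part what the rule asked for. In the fit of all 8018 genes with detectable signal (limma, signals scaled to the 75th percentile) all 97 were called lower at a Benjamini-Hochberg adjusted p under 0.05, where 30.8% of the genes tested were called lower. That count restates the choice of genes.

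**Figure D1:**
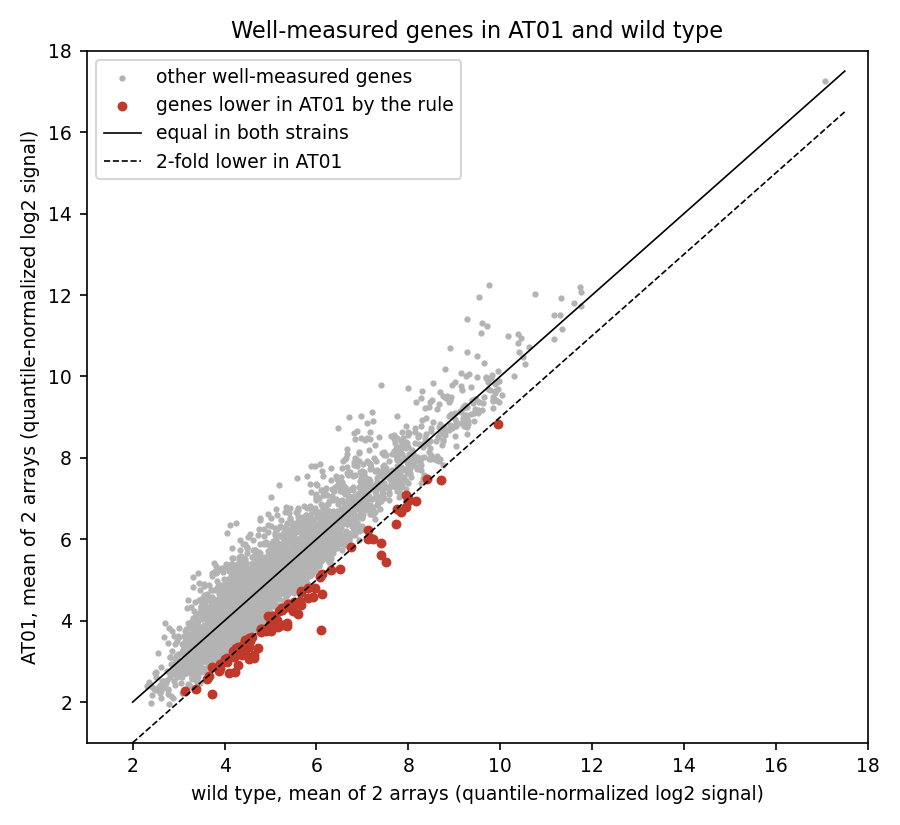
Mean quantile-normalized log2 signal of the 3686 well-measured genes in AT01 (vertical) against wild type (horizontal), 2 arrays per strain, with the 97 chosen genes in red. The red points run along the dashed line of a 2-fold lower signal from wild-type means of 3.15 to 9.96, and 2 of them lie at least 4-fold below equality.

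The genes came from all levels of wild-type signal. With the well-measured genes sorted by wild-type mean into 4 classes of equal size, 13 of the 97 fell in the dimmest class, then 30, 28 and 26 in the brightest. The median log2 difference in these classes was -1.05, -1.06, -1.10 and -1.15, in the same order. These medians lie just past the limit that the rule sets in every class, so they do not show how the difference varies with brightness. The wild-type median was 5.04 for the 97 genes and 4.92 for all well-measured genes, and the AT01 median was 3.90 for the 97 genes and 4.97 for all well-measured genes.

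The largest gap belonged to TRIREDRAFT_53722, which read 3.78 and 3.74 on the AT01 arrays, against 6.13 and 6.06 on the wild-type arrays (quantile-normalized log2 signal). Its signal was thus 5.05-fold lower in AT01, with replicates that differed by under 0.1 in each strain. All 5 of its probes were well above background on every array and gave log2 differences from -2.90 to -1.73. Before any scaling the mean of its processed signals was 25.9 and 23.9 on the AT01 arrays and 57.5 and 60.2 on the wild-type arrays. The gene was thus dimmer in AT01 before scaling between arrays too, on arrays that had more probes above background.

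TRIREDRAFT_46764 followed with 5.54 and 5.35 on the AT01 arrays and 7.55 and 7.49 on the wild-type arrays, 4.22-fold lower. TRIREDRAFT_120031 read 5.53 and 5.69 in AT01, against 7.46 and 7.37 in wild type, 3.48-fold lower. With TRIREDRAFT_53722, these are the 3 genes whose gap stayed at 0.8 or more with no scaling between arrays, at 1.36 for TRIREDRAFT_53722, 1.1 for TRIREDRAFT_46764 and 0.92 for TRIREDRAFT_120031.

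The next gaps were smaller. TRIREDRAFT_34112 read 5.93 and 5.91 in AT01 and 7.41 and 7.40 in wild type, a gap of 1.47. TRIREDRAFT_102497 read 4.62 and 4.70 in AT01 and 6.12 and 6.12 in wild type, a gap of 1.43. Both had every probe well above background on all arrays, and in both the replicates of a strain lay within 0.1 of each other.

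TRIREDRAFT_122271 (3.85 and 3.87 in AT01, 5.43 and 5.29 in wild type), TRIREDRAFT_64752 (3.92 and 3.97 in AT01, 5.36 and 5.35 in wild type) and TRIREDRAFT_59827 (3.89 and 3.91 in AT01, 5.27 and 5.29 in wild type) formed a group of moderate signal, 2.82-fold, 2.66-fold and 2.60-fold lower in AT01. Their AT01 values were nearly the same, and all their probes were detected. The remaining 4 of the 12 largest gaps were dimmer and had 1 or 2 probes that were not well above background on every array. TRIREDRAFT_2186 read 2.06 and 2.32 in AT01 and 3.74 and 3.73 in wild type, with 2 of 4 probes detected on all arrays. TRIREDRAFT_66616 read 2.69 and 2.74 in AT01 and 4.11 and 4.10 in wild type, with 3 of 5. The other two were TRIREDRAFT_2501 (3.13 and 3.19 in AT01, 4.55 and 4.75 in wild type) and TRIREDRAFT_112502 (3.02 and 3.14 in AT01, 4.50 and 4.76 in wild type). For these 4 genes the strains did not overlap, but part of the average rests on probes near background.

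**Figure D2:**
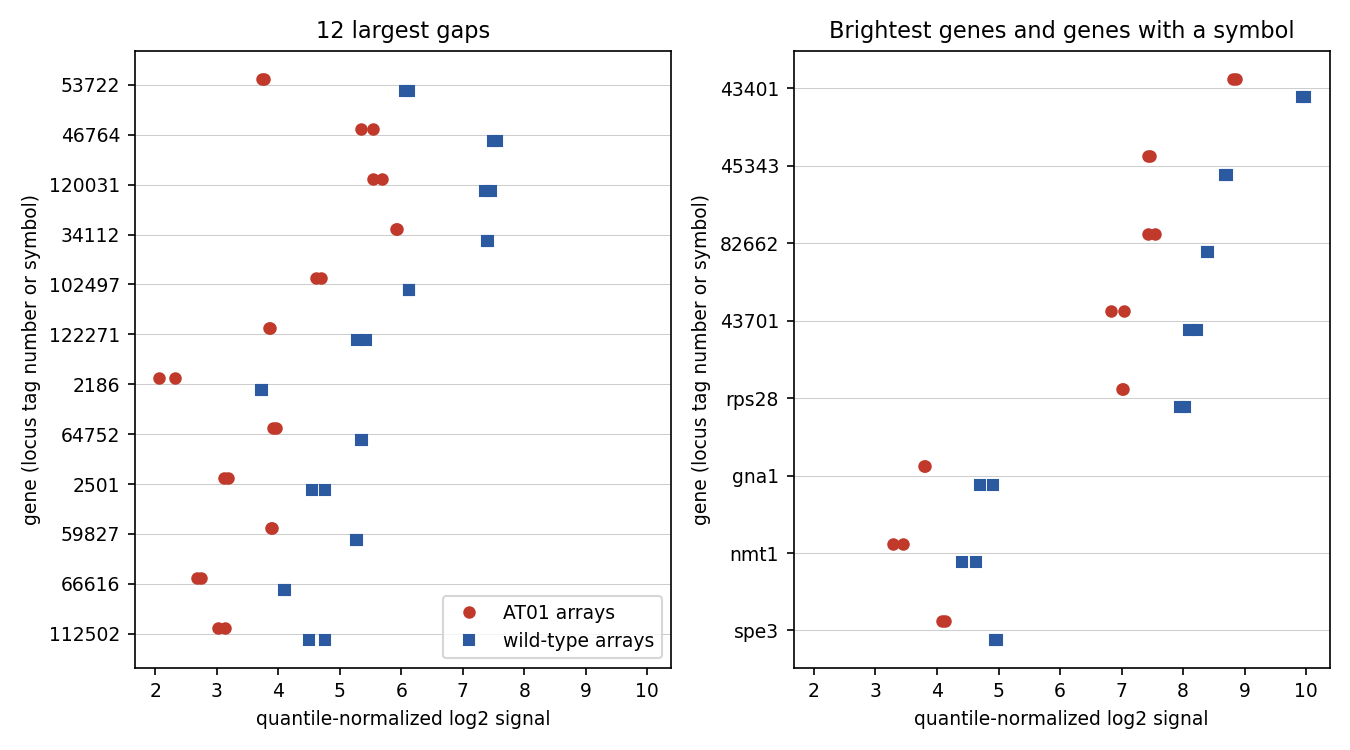
Quantile-normalized log2 signal of each AT01 array (red circles) and each wild-type array (blue squares) for the 12 genes with the largest gap (left) and for the brightest genes and those with a symbol (right); numbers are locus tags. In every row both AT01 arrays lie left of both wild-type arrays, from a gap of 2.28 for TRIREDRAFT_53722 to 0.80 for spe3.

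Past the 12 largest, 31 genes had gaps from 1.00 to 1.35 and were 2.07-fold to 2.84-fold lower in AT01. Their AT01 means ran from 2.73 to 8.84 with a median of 4.47, and their wild-type means from 3.88 to 9.96 with a median of 5.64. The other 54 genes had gaps under 1 and were 1.80-fold to 2.24-fold lower. Of those 54, 22 had every probe detected on all arrays, as had 19 of the 31 and 8 of the 12. Full detection was thus less frequent among the smaller gaps.

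Among the brightest of the 97, TRIREDRAFT_43401 read 8.81 and 8.87 on the AT01 arrays and 9.99 and 9.93 on the wild-type arrays, 2.18-fold lower. It has only 2 probes, and they differed in size, at -1.83 and -0.42. TRIREDRAFT_45343 read 7.43 and 7.47 in AT01 and 8.69 and 8.71 in wild type, 2.38-fold lower, with its 5 probes spread from -2.70 to -0.34. TRIREDRAFT_82662 read 7.42 and 7.54 in AT01 and 8.41 and 8.39 in wild type, 1.89-fold lower. For these bright genes the replicate arrays were closer than the probes were to each other.

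Of all 97, the ribosomal protein gene rps28 had its highest and lowest probe closest together, though it has only 3 probes, which favours a small distance. It read 7.0 and 7.03 on the AT01 arrays, against 8.02 and 7.95 on the wild-type arrays, and was 1.97-fold lower in AT01. Its 3 probes gave log2 differences between -1.01 and -0.95. All 42 ribosomal protein genes with a symbol were well measured. Of these, rps28 was the only one among the 97, where 2.63% of all well-measured genes were. The ribosomal list had a median log2 difference of -0.29 on this scale, with a range of -0.98 to 0.55, against -0.04 over all well-measured genes. By limma with quantile normalization 12 of the 42 were called lower and 1 higher, where 9.93% of all genes tested were called lower and 14.1% higher. With scaling to the 75th percentile 37 of 42 were called lower and 0 higher, where 30.8% of all genes tested were called lower and 13.7% higher. The genes tested include dim ones: their median share of probes detected on all arrays was 40%, against 80% for well-measured genes. The shares over all genes tested are therefore not a like baseline for the 42. The nearest of the other ribosomal genes was rpl11, of the large subunit, with 7.31 and 7.47 in AT01 and 8.29 and 8.25 in wild type, a gap of 0.78 that just missed the rule.

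The G protein gene gna1 read 3.79 and 3.80 on the AT01 arrays and 4.70 and 4.90 on the wild-type arrays, 2.01-fold lower. Heterotrimeric G proteins pass signals from receptors in the plasma membrane to enzymes such as adenylate cyclase, and in filamentous fungi they act in growth, conidiation and the response to nutrients and light. All 5 probes of gna1 were lower on both AT01 arrays, from -0.55 for its brightest probe to -1.52 for a dim one, and 3 of the 5 were detected on all arrays. The other alpha subunit genes did not share this size. The gene gna2 read 3.07 and 2.91 in AT01 and 3.71 and 3.28 in wild type. The gene gna3 read 2.94 and 3.10 in AT01 and 2.85 and 3.32 in wild type, where the strains overlap. Both are dim, and neither was well measured by the rule.

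The subunit genes gbg1 and tgb1 were lower by smaller amounts. The gene gbg1 read 6.68 and 6.65 in AT01 and 7.29 and 7.25 in wild type, a log2 difference of -0.60, and tgb1 read 3.85 and 3.98 in AT01 and 4.55 and 4.43 in wild type, a log2 difference of -0.57. Of the protein kinase A genes, pkar1 read 4.06 and 4.22 in AT01 and 4.44 and 4.51 in wild type. The gene pkac2 read 4.23 and 4.20 in AT01 and 4.45 and 4.47 in wild type, and was well measured. The gene pkac1 read 2.79 and 2.93 in AT01 and 2.50 and 2.76 in wild type and was dim. Of 18 well-measured signalling genes, gna1 alone was among the 97, where 2.63% of all well-measured genes were. The gene rho3, with 6.68 and 6.79 in AT01 and 5.38 and 5.33 in wild type, was among the 216 higher genes and further apart than gna1. By limma with quantile normalization 4 of the 18 were called lower and 1 higher, where 9.93% of all genes tested were called lower and 14.1% higher. With scaling to the 75th percentile 6 were called lower and 1 higher, where 30.8% and 13.7% of all genes tested were. As for the ribosomal list, the genes tested include dim ones, so these shares are not a like baseline for the 18. The median log2 difference of the 18 was -0.18 on the quantile scale.

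The gene spe3 had the third smallest gap of the 97, at 0.80. It read 4.13 and 4.09 on the AT01 arrays and 4.98 and 4.94 on the wild-type arrays, 1.80-fold lower. Spermidine synthase makes the polyamine spermidine from putrescine. Of the 5 probes of spe3, 4 were lower on both AT01 arrays, and the last one overlapped, with 4.43 and 4.20 in AT01 against 4.39 and 4.91 in wild type. The gene dhyS, chosen after its values were seen, carries the name of deoxyhypusine synthase, which uses spermidine to modify a translation factor. It read 2.17 and 2.42 in AT01 and 3.12 and 3.57 in wild type, 2.07-fold lower. Its gap of 0.70 missed the rule. The replicate arrays lay apart in both strains, more so in wild type.

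The symbol nmt1 is used in fission yeast for a thiamine-repressible biosynthesis gene and in budding yeast for N-myristoyltransferase, and the reference table does not say which is meant. It read 3.44 and 3.28 on the AT01 arrays and 4.41 and 4.64 on the wild-type arrays, 2.24-fold lower. Every one of its 5 probes was lower on both AT01 arrays, by log2 differences from -1.59 to -0.77. The thiamine biosynthesis gene thi4, chosen after its values were seen, read 3.53 and 3.33 in AT01 and 3.64 and 2.35 in wild type. Its strains overlap and its wild-type arrays disagree, so no direction can be read from it beside nmt1.

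The other lists of named genes held none of the 97, where 2.63% of all well-measured genes were among them. Each list is small, so holding none of the 97 does not set it apart. These were cellulases and accessory proteins (3 well measured), transcription regulators (5), central carbon metabolism (17), the secretory pathway (10), cell wall and surface genes (4), histones (5), proteasome and ubiquitin genes (8), copper and oxidative stress enzymes (1, sod1) and nitrogen, sulfur and amino acid metabolism (6). The superoxide dismutase gene sod1 read 8.29 and 8.55 in AT01 and 8.49 and 8.45 in wild type, and the strains overlap. With scaling to the 75th percentile sod1 was called lower by limma, at a log2 difference of -0.44, where 30.8% of all genes tested were called lower. Of the 162 well-measured genes with a symbol, 4 were among the 97, close to the share of 2.63% over all well-measured genes. Outside the ribosomal list the nearest to the rule was fld1, with 5.17 and 5.22 in AT01 and 5.98 and 6.05 in wild type, followed by dhyS, given above, and cel61a, with 2.85 and 2.67 in AT01 and 3.55 and 3.70 in wild type.

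Single probes mostly showed the same direction as the gene average. The 97 genes have 434 probes, of which 422 (97.2%) were lower on both AT01 arrays than on both wild-type arrays, against 36.6% of the 17439 probes of all well-measured genes. The rule averaged these same probes, so the high share is largely what the rule asked for and does not test the genes. In 85 genes this held for every probe, and in the other 12 for all but 1. Of those 12 probes 9 were well above background on all arrays, so dimness does not mark them all. In 5 of them the AT01 mean was the higher one.

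The clearest disagreement was in TRIREDRAFT_77806, whose gene average was 2.99 and 3.0 in AT01 and 4.18 and 3.94 in wild type. Its brightest probe read 5.29 and 5.12 in AT01 and 4.78 and 4.83 in wild type, a log2 difference of 0.40 in the opposite direction, while another probe lay at -1.81. TRIREDRAFT_105287 was lower over all 4 probes, from -1.31 to -0.20 for the 3 probes detected on all arrays and at -2.78 for a probe not well above background on every array, around gene averages of 5.93 and 6.08 in AT01 and 7.25 and 7.19 in wild type. TRIREDRAFT_45343, given above, was the third with widely spread probes. Over the 97 genes the median distance between a gene's highest and lowest probe was 0.81, against 0.77 over all well-measured genes. Over all 8018 genes tested the median was 1.02. This distance tends to be smaller with fewer probes, and 47.4% of the 97 had fewer than 5, against 24.8% of the well-measured genes. The medians thus do not show whether the probes of the 97 were as even as those of other genes.

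**Figure D3:**
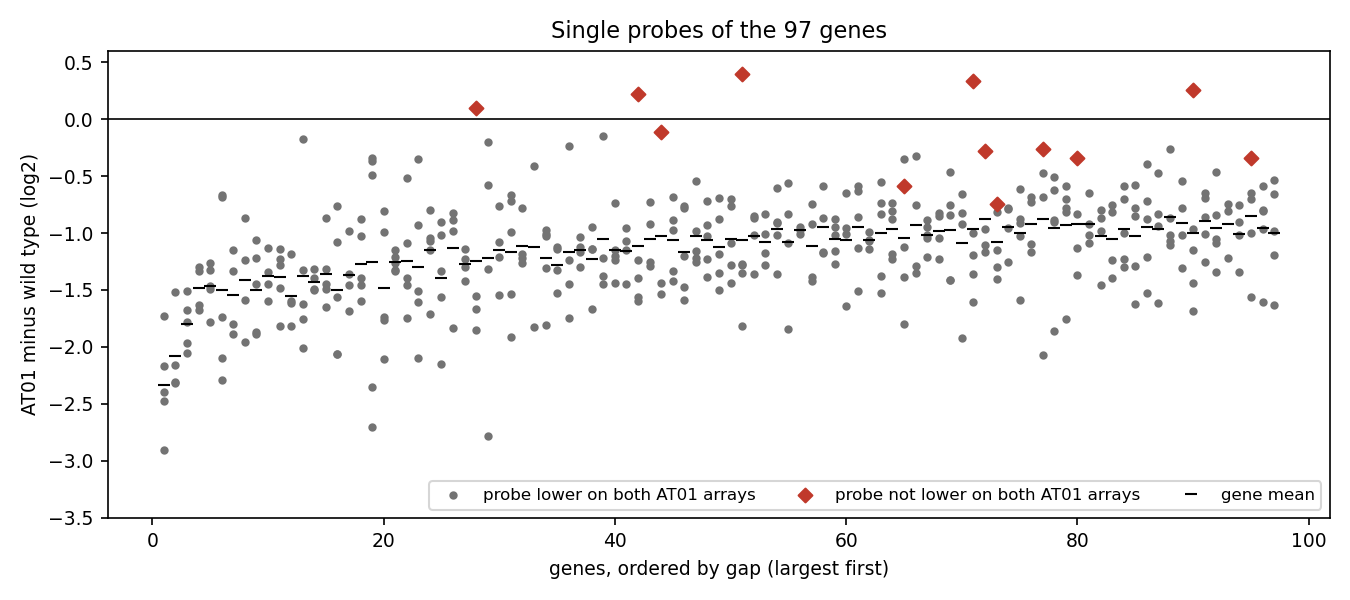
Log2 difference, AT01 minus wild type on the quantile-normalized scale, of each of the 434 probes of the 97 genes, ordered from the largest gap to the smallest; dashes are gene means and red diamonds the 12 probes that were not lower on both AT01 arrays than on both wild-type arrays. Grey points spread widely around the gene mean yet stay below 0, and 5 red diamonds lie above it.

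Genes with few probes were common among the 97. The array carries 5 probes for most genes, and 46 of the 97 (47.4%) had fewer than 5, against 24.8% of the well-measured genes and 20.5% of all genes on the array. Put the other way, 5.03% of the 915 well-measured genes with fewer than 5 probes were among the 97, and 1.84% of the 2771 with 5 probes. For the 216 higher genes the shares were 2.30% and 7.04%. Within each of the 4 classes of wild-type signal the share among genes with fewer than 5 probes was also the larger one: 2.21% against 1.08% in the dimmest class, 6.15% against 2.56%, 6.74% against 2.06%, and 5.88% against 1.54% in the brightest. The log2 difference of the well-measured genes as a whole moved the same way, with a median of -0.26 for genes with fewer than 5 probes and 0.03 for genes with 5. Number of probes is a property of the array design, and the rule set no condition on it. The rule did average the probes of a gene and ask for a share of them to be detected. Probe number can thus enter the choice of genes, and these shares are not independent of the rule. Its part in the result was not tested.

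Some of the 97 genes are neighbours in the gene order of the reference assembly (v2.0 of strain QM6a). Of the 96 that could be placed, 10 (10.4%) lay within 2 loci of another of the set, against 3.90% of the other 3564 well-measured genes that lay within 2 loci of one of the set. Directly adjacent were 6 of the 96. The set was spread over 26 of the 62 runs of genes into which the reference table divides.

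The adjacent pair TRIREDRAFT_43701 and TRIREDRAFT_102497 holds 2 of the genes described above. TRIREDRAFT_43701 read 6.83 and 7.04 in AT01 and 8.22 and 8.10 in wild type, 2.33-fold lower, and its neighbour was 2.76-fold lower from a lower level. In the adjacent pair TRIREDRAFT_66544 and TRIREDRAFT_66616 the levels were close as well: TRIREDRAFT_66544 read 2.63 and 2.84 in AT01 and 4.35 and 4.12 in wild type, 2.84-fold lower beside 2.62-fold. The last adjacent pair was TRIREDRAFT_103291, with 3.07 and 3.28 in AT01 and 4.38 and 4.20 in wild type, and TRIREDRAFT_74444, with 3.22 and 2.94 in AT01 and 4.04 and 4.05 in wild type. The rule fixes the direction in these pairs and holds the sizes close, so neither describes the pairs as neighbours.

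The last pair is followed, after a few other loci, by TRIREDRAFT_74453, itself among the 97 with 4.36 and 4.31 in AT01 and 5.33 and 5.40 in wild type. Of the loci between, TRIREDRAFT_74449 read 4.12 and 4.0 in AT01 and 4.67 and 4.75 in wild type, a gap of 0.55, and TRIREDRAFT_54809 had a gap of 0.12. TRIREDRAFT_53659 was dim in both strains, and TRIREDRAFT_124331 was not measured here. TRIREDRAFT_74449 and TRIREDRAFT_54809 were thus lower in AT01 by differing amounts, where 40.6% of all well-measured genes were lower by a gap of any size. The other well-measured loci of this stretch are among the 97 and are lower by the rule.

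In 2 other places a single locus stood between genes of the set. TRIREDRAFT_58584 (3.09 and 3.03 in AT01, 4.31 and 4.77 in wild type) and TRIREDRAFT_121107 (3.20 and 3.32 in AT01, 4.24 and 4.21 in wild type) flank TRIREDRAFT_58356, which was lower by a log2 difference of -0.57 with a gap of 0.50. TRIREDRAFT_55552 (5.14 and 4.99 in AT01, 6.10 and 6.07 in wild type) and TRIREDRAFT_2231 (3.02 and 3.31 in AT01, 4.43 and 4.34 in wild type) flank a dim locus with no probe detected on all arrays. The locus between was lower too in the first place, where 40.6% of all well-measured genes were lower by a gap of any size. In the second place the locus between could not be judged.

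Neighbours did not always go along. Between TRIREDRAFT_34112 and TRIREDRAFT_68067, which read 4.58 and 4.52 in AT01 and 5.83 and 5.81 in wild type, lies TRIREDRAFT_51455 with 3.98 and 4.18 in AT01 and 3.68 and 3.71 in wild type, higher in AT01. A looser stretch of 8 loci runs from TRIREDRAFT_43286 over TRIREDRAFT_76235 to TRIREDRAFT_105287, and none of its 5 other loci was well measured. The 5-locus distance used to join these stretches was chosen after the values were seen.

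**Figure D4:**
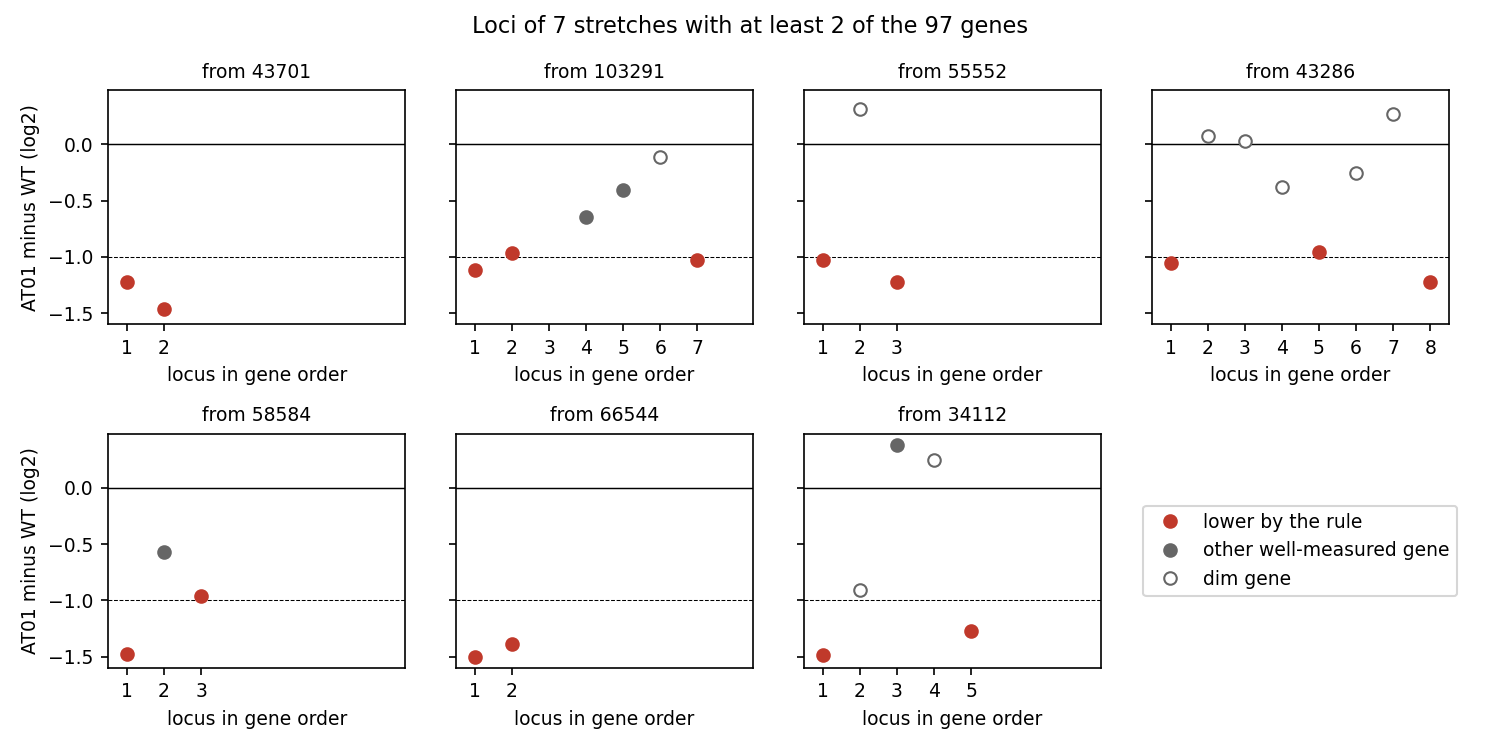
Log2 difference, AT01 minus wild type, of every measured locus in the 7 stretches of the reference gene order in which genes of the set lie within 5 loci of each other; red marks the 97 genes, grey other well-measured genes and open circles dim genes. Red points lie near or below the dashed line of a 2-fold lower signal, while loci between them lie from -0.90 to 0.38.

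At the edge of the rule the values change smoothly. Just inside lay spe3, TRIREDRAFT_76235 (3.65 and 3.49 in AT01, 4.60 and 4.45 in wild type) and TRIREDRAFT_60086 (3.32 and 3.49 in AT01, 4.29 and 4.51 in wild type). Just outside lay TRIREDRAFT_108519 (4.40 and 4.50 in AT01, 5.30 and 5.47 in wild type), TRIREDRAFT_112122 (3.58 and 3.58 in AT01, 4.41 and 4.38 in wild type) and TRIREDRAFT_34277 (3.77 and 3.93 in AT01, 4.78 and 4.73 in wild type). There were 36 well-measured genes with a gap from 0.8 to 0.9 and 49 with a gap from 0.7 to 0.8. A further 51 genes had a gap of 0.8 or more but failed the demand on detection, 17 of them with no probe well above background on all arrays.

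A few single genes mark the extremes of the set and were chosen after their values were seen. The AT01 arrays were furthest apart for TRIREDRAFT_43286, with 2.16 and 2.50 against 3.34 and 3.43 in wild type. The wild-type arrays were furthest apart, by 0.46, for TRIREDRAFT_58584. The dimmest in wild type was TRIREDRAFT_104415, with 2.29 and 2.26 in AT01 and 3.16 and 3.14 in wild type. The gene without a locus tag, ASTRICH48280, read 5.83 and 5.81 in AT01 and 6.78 and 6.72 in wild type, 1.90-fold lower. In each of them the strains stayed apart by more than the replicates of either strain. This held for every gene of the set, since no replicates lay over 0.46 apart and the rule asked for a larger gap. It is thus no separate finding about these genes.

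The lower level of the 97 genes is a level relative to the rest of the array, and its size depends on how the brighter AT01 arrays are brought to the level of the wild type. With no scaling at all, 59 of the 97 were lower on both AT01 arrays than on both wild-type arrays, where 2.14% of the well-measured genes were. The median log2 difference of the 97 was then -0.19, while that of all well-measured genes was 0.77. The mean was lower in AT01 for 92 of the 97 and higher for 5, spe3 among them, with 4.63 and 4.51 on the AT01 arrays and 4.48 and 4.53 on the wild-type arrays (unscaled log2 signal). For gna1 the unscaled values were 4.29 and 4.24 in AT01 and 4.20 and 4.50 in wild type, which overlap, and for nmt1 3.95 and 3.71 in AT01 and 3.92 and 4.22 in wild type, which overlap too. The gene rps28 was lower without scaling, with 7.42 and 7.39 in AT01 and 7.63 and 7.71 in wild type.

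All scalings tried placed every one of the 97 below wild type with no overlap. This held with scaling to the 75th percentile (background 50.4% of the well-measured genes), with the percentile over detected probes (42.5%) and with cyclic loess (38.8%). It held as well in the authors' deposited table (43.6%) and with normexp background correction before quantile normalization (45.6%). These settings start from the same arrays on which the rule chose the genes. The lack of overlap is thus largely what the rule asked for and does not test the genes. Applied to the same well-measured genes, the 0.8 gap was kept by 94 of the 97 with the 75th percentile, where 164 genes met it, by 86 with cyclic loess, where 97 met it, by 69 with the percentile over detected probes, where 100 met it, and by 79 in the authors' deposited table, where 89 met it. With normexp, which adds an offset of 50 to every signal, 5 kept it, where 11 genes met it, and the median difference was -0.29. With the brightest probe of each gene alone 34 kept the gap, where 77 genes met it, and 88 had strains that did not overlap (background 42.8%). With the median of the probes 69 kept the gap, where 125 genes met it, and all 97 had strains that did not overlap (background 40%).

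**Figure D5:**
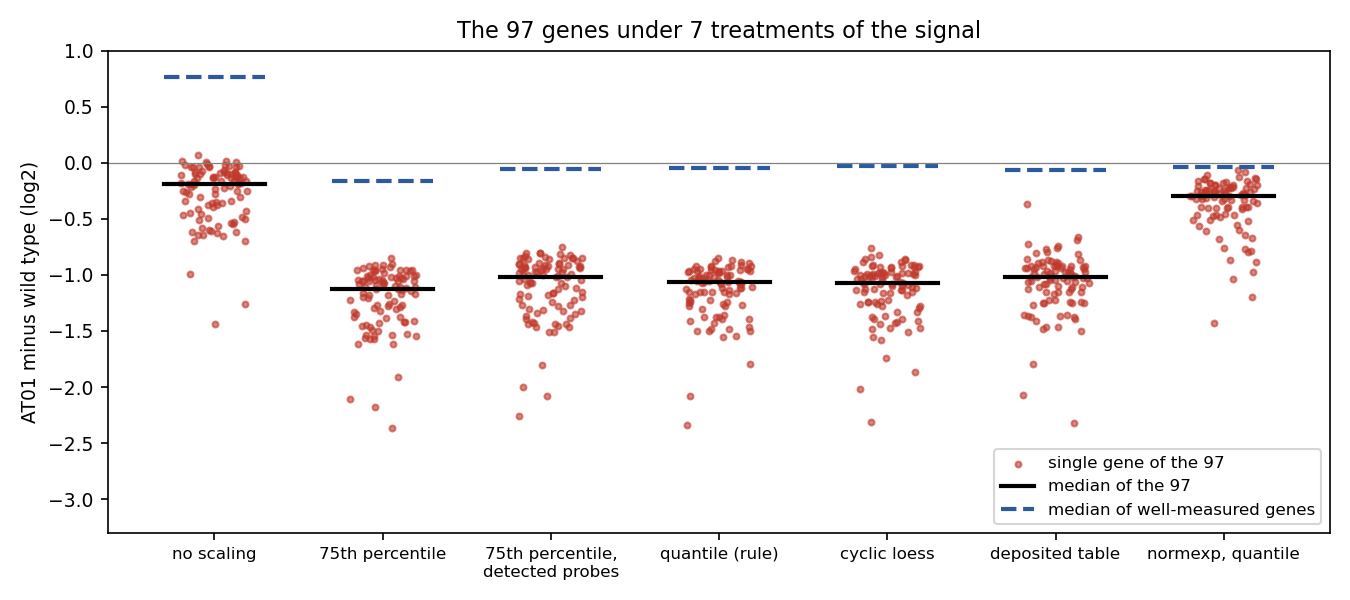
Log2 difference, AT01 minus wild type, of each of the 97 genes (red) under 7 treatments of the signal, with the median of the 97 (black line) and of all well-measured genes (dashed blue line). The median of the 97 lies below that of all well-measured genes in each treatment, at -1.12 to -1.02 with 5 of them, -0.29 with normexp and -0.19 with no scaling.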

How the data were processed

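The members and the gene lists were chosen with earlier results of these data known. The submitters' processing notes name Agilent Feature Extraction 10.5.1.1 for reading the images. The deposited intensity values are background-subtracted processed signals, per the file headers, with detection and outlier flags for each spot. The authors' deposited table is on a log2 scale; its normalization is not given in the sources used here.

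Processed signals of 43565 probes were quantile-normalized with limma 3.58.1 in R 4.3.3 and averaged by gene to apply the rule. The fit over 8018 genes (those with a probe detected above background by both arrays of either strain) used signals minus each array's 75th percentile, without outlying spots, by lmFit and eBayes, calling genes at 0.05 after Benjamini-Hochberg adjustment. The files hold no mean signal, so normexp used the median signal. No spot was saturated. The limma step was tested on simulated data. The number of arrays, 2 per strain, limits precision. Of 9127 array genes, 9070 (99.4%) matched a locus tag by number; no gene build is named in them, so no coordinates are given, and no sequence is shown.

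Named are genes with a symbol, the 12 largest gaps, the 5 brightest in wild type, 3 genes on each side of the 0.8 limit, genes within 2 loci of another, and the 3 with the most uneven probes. Other named genes were chosen after their values were seen or belong to the symbol lists. The main fit did not take arrays with the same replicate number as pairs.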

Additional observations from a re-analysis of the deposited data

How the results depend on the processing

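Of the 97 genes, 85 to 97 were called lower by limma in every alternative except with no scaling between arrays (33), an alternative chosen after seeing the data, as was averaging only probes detected on all arrays (96). The contrast between the strains chose the genes, so these counts restate the choice. Of all genes tested, 30.8% were called lower with the 75th percentile and 9.93% with quantile normalization. Leaving out any 1 array left 97 called, with a median log2 difference of -1.13 to -1.08; the lone array is then assumed to vary like the other strain's pair, and the rule had already asked for separation on all 4 arrays. That median was -0.83 with the brightest probe, -0.29 with normexp and -0.19 with no scaling, and the 0.8 gap was kept by 34, 5 and 3 genes in these settings. Over all genes 3566 were called (30.8% of them higher in AT01), against 1923 with quantile normalization (58.6% higher), 1965 with cyclic loess (60.5%), 1890 with normexp (49.4%), 2333 with dim probes set to 1 common floor (47.5%), 2372 in the authors' deposited table (50.2%), 1453 with the median of probes (44.3%), 2095 among well-measured genes only (37.2%) and 5584 with no scaling (98.8%); the percentile over detected probes gave 43.7% higher. The median of all genes was -0.24 with the 75th percentile and -0.02 with quantile normalization. Leaving out an array gave 1350 to 2454 calls: 1350 without AT01 array 2, 2115 without AT01 array 1 and 2234 when wild-type array 2 was left out. Taking the replicate number as a block, 3796 genes were called, all 97 among them. Same-numbered arrays did not deviate together (r = 0.01 across genes). That does not show whether they were paired when grown or labelled. No block for slide could be fitted, as there is 1 slide. Of 578 single-gene values over 34 named genes, 555 kept direction and call, 19 lost the call and 4 changed sign: spe3 (0.069), TRIREDRAFT_112122 (0.11) and TRIREDRAFT_34277 (0.019) with no scaling, and TRIREDRAFT_77806 with its brightest probe (0.39). The cause was not tested.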
